A study of Mus musculus with 10 samples.

Results

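The 9 genes described here are transcription factors that pattern the otic vesicle, the epithelial sac that becomes the inner ear: Dlx5, Dlx6, Hmx2, Hmx3, Gbx2, Pax2, Otx1, Otx2 and Pax8. They were chosen by gene symbol, 9 of the 19938 genes that the platform annotation names, and each was read from 1 probe set. RNA came from mouse periotic tissue at embryonic day 12.5, that is, the otic vesicle with the mesenchyme around it, left and right pooled within an embryo and hybridised to Affymetrix Mouse Gene ST 1.0 arrays. The 5 mutants carried a T-Cre conditional knockout of Tbx1, and the 5 controls were T-Cre conditional Tbx1 heterozygotes. T-Cre recombines in the early mesoderm, so the controls carry the Cre too and are themselves heterozygous for Tbx1, and the otic epithelium, which comes from ectoderm, lies outside the targeted cells. The study asked what mesodermal loss of Tbx1 does to gene expression in the ear.

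Along the dorsoventral axis of the otic vesicle, WNT signals from the dorsal hindbrain and Sonic hedgehog from the ventral midline turn on different homeobox genes. Dlx5, Dlx6, Hmx2, Hmx3 and Gbx2 mark dorsal epithelium, which forms the endolymphatic duct and semicircular canals. Pax2, Otx1 and Otx2 mark ventral epithelium, from which the cochlea and saccule grow, and Pax8 acts with Pax2 from the otic placode on. Several of these genes also work in tissue next to the ear: Dlx5 and Dlx6 in pharyngeal arch mesenchyme and skeletal condensations, Pax2, Pax8 and Gbx2 in the hindbrain or at its border with the midbrain, and Otx2 in the choroid plexus. A whole-tissue sample cannot tell fewer cells of a type from less RNA per cell.

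Some arrays stood apart before any comparison of genotypes. En2, a gene of the midbrain-hindbrain border, read 8.81 in mutant 5 and 7.05 in control 4 on the log2 scale, against 4.17 to 5.12 in the other 8 arrays. Fos, an immediate early gene, separated the arrays by replicate number in both groups, at 8.82 to 9.08 in the 6 arrays of replicates 1 to 3, called set A here, and at 5.49 to 5.91 in the 4 arrays of replicates 4 and 5, called set B. Oc90, which encodes the otoconial protein of the otic epithelium, read 8.35 in mutant 1 and 9.53 to 10.57 elsewhere. Tbx1 itself had a log2 difference of -0.88 with 4 of 5 mutants below every control, and it missed the threshold over all probe sets (limma adjusted p 0.451). The exception was mutant 1, where Tbx1 read 8.40, above control 4 at 8.23. Of 12 measured otic epithelium markers and 10 periotic mesenchyme markers, 0 had a mean below the background of 4.34. This background was taken from 3 Y-linked probe sets in embryos read as female by their Xist signal.

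All 9 genes gave signal above that background in all 10 arrays. The lowest single value, 5.75, also lay above 5.47, the level under which 95% of 1035 olfactory receptor probe sets fell. Some marker genes named below or counted above lay under that level. Among them were Tectb of the otic epithelium (means 4.98 in controls, 4.81 in mutants) and Kl of the choroid plexus (4.51 and 4.47). Signals of different genes are not compared here, since probe sets differ in their response.

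None of the 9 genes passed the threshold in the comparison of mutants with controls. The limma adjusted p over all probe sets was 0.589 or more for each, and over all genes 2 were called (0.01%). For 0 of the 9 did the mutants and controls separate without overlap, where 1.83% of all genes did. Unadjusted, 2 of the 9, Dlx5 and Dlx6, had a limma p under 0.05, against 7.82% of all genes, 3.11% in the lower direction and 4.7% in the higher. The difference was below 0 for 5 of the 9 genes and above 0 for 4, and it was below 0 for 50.9% of all genes.

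**Figure D1:**
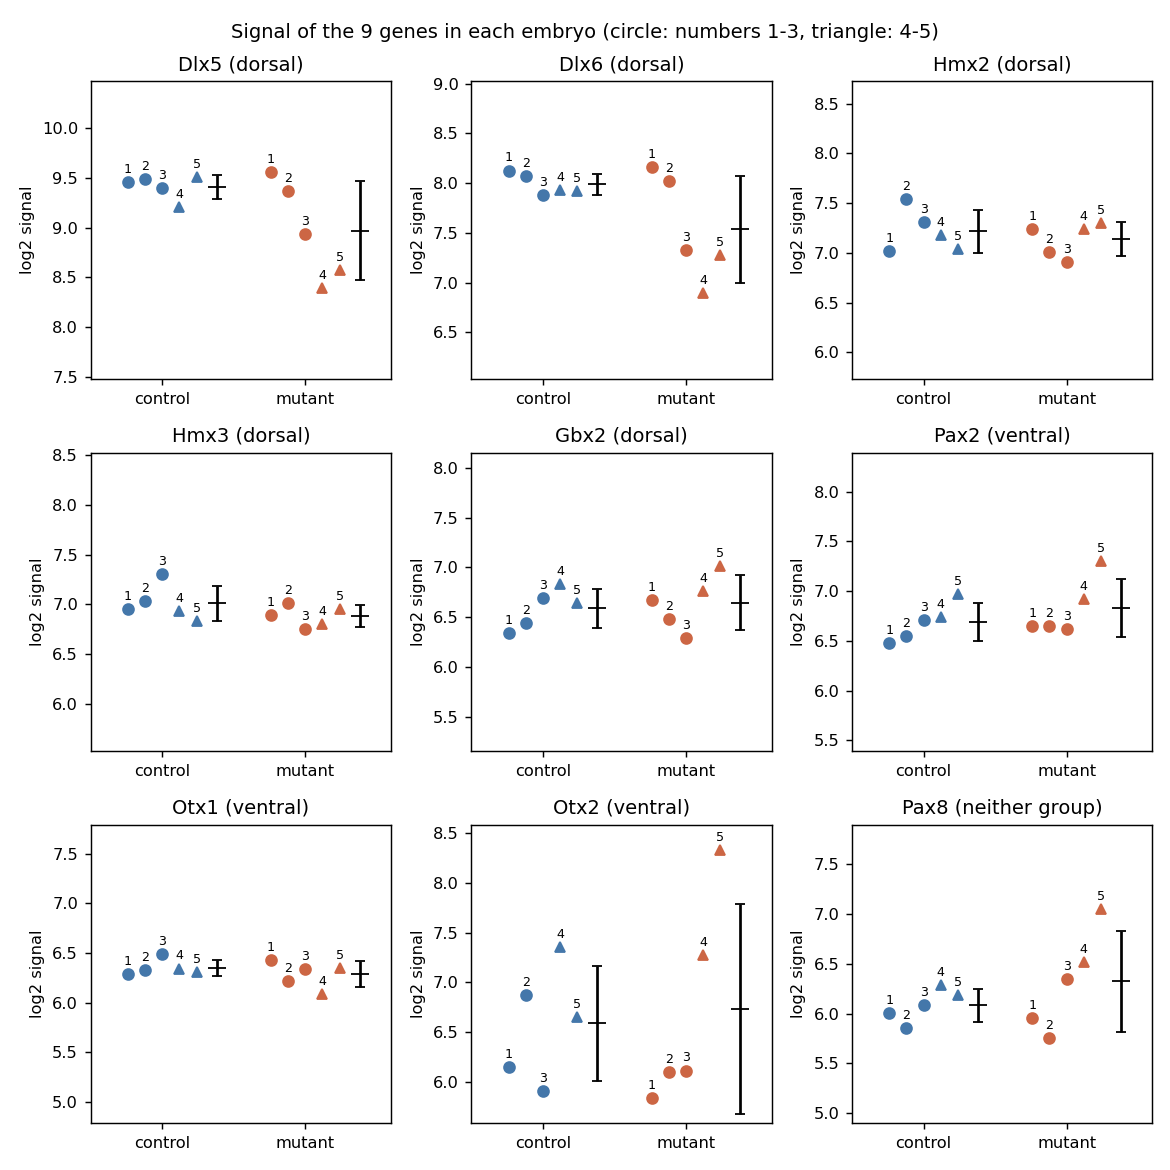
Log2 signal (vertical axes, each spanning 3 log2 units) of each gene in the 5 controls and 5 mutants, labelled by replicate number, with the group mean ± SD beside the points. Dlx5 and Dlx6 are low in mutants 3, 4 and 5 only, and Otx2 and Pax8 are highest in mutant 5.

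Dlx5 encodes a distal-less homeobox factor needed for the vestibular part of the inner ear. It read 9.46, 9.48, 9.39, 9.20 and 9.51 in controls 1 to 5, and 9.55, 9.37, 8.94, 8.39 and 8.58 in mutants 1 to 5. Mutants 3, 4 and 5 lay below every control, mutant 1 lay above every control and mutant 2 lay among them. The means ± SD were 9.41 ± 0.12 over the 5 controls and 8.97 ± 0.50 over the 5 mutants. The log2 difference of -0.44 had a 95% interval of -0.85 to -0.04, which leaves 73.5% of the control signal (55.6 to 97.2%). By limma the unadjusted p was 0.0331 and the adjusted p 0.589, and the exact two-sided permutation p was 0.111. Without mutant 4 the difference was -0.30.

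Dlx6, the paralogue that shares regulatory elements with Dlx5, gave the same order of arrays at the low end. Controls 1 to 5 read 8.13, 8.07, 7.88, 7.93 and 7.92, and mutants 1 to 5 read 8.16, 8.02, 7.33, 6.89 and 7.27. Again mutants 3, 4 and 5 lay below every control, with mutant 4 lowest, while mutant 1 lay above every control. The means were 7.99 ± 0.11 and 7.53 ± 0.54 (SD, n = 5 each), a log2 difference of -0.45 with an interval of -0.88 to -0.02. Dlx6 had an exact permutation p of 0.143, a limma unadjusted p of 0.0414 and a limma adjusted p of 0.602. Leaving out mutant 4 gave -0.29.

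For both Dlx genes the spread among the mutants exceeded that among the controls, with a ratio of SDs of 4.03 for Dlx5 and 5.03 for Dlx6. Among the controls the SD of Dlx5 was larger than that of 49.6% of all genes, and among the mutants larger than that of 98.4%. For Dlx6 these shares were 38.2% and 98.7%. No test of the spread was run.

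The size of the Dlx differences was uneven between the sets of replicate numbers. In set A the difference was -0.16 for Dlx5 and -0.19 for Dlx6, and in set B it was -0.87 and -0.85. The interaction of genotype with array set was -0.71 ± 0.22 (SE) for Dlx5 and -0.66 ± 0.30 for Dlx6. Neither passed over all probe sets, with a limma adjusted p of 1.00 for each (unadjusted 0.00809 and 0.0483), and 0 genes passed this interaction test (0%). Unadjusted, 505 genes were under 0.05 in it (2.53%). Between the same sets the immediate early genes differed, and the part of this in the Dlx values was not tested.

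All 6 measured Dlx genes had a difference below 0, with a median of -0.37. Dlx3, expressed in dorsal otic epithelium as well as in arch and surface ectoderm, read 7.94, 7.96, 7.80, 7.68 and 7.95 in controls 1 to 5 and 7.80, 7.48, 7.29, 7.03 and 7.06 in mutants 1 to 5. Thus 4 of the 5 mutants lay below every control. The log2 difference of Dlx3 was -0.53 ± 0.13 (SE), with an exact permutation p of 0.0238 and a limma adjusted p of 0.569 (unadjusted 0.00145). Dlx4 had -0.30 ± 0.10 (limma adjusted p 0.571). Dlx1 and Dlx2, which act mainly in arch mesenchyme and forebrain, had -0.17 ± 0.22 and -0.19 ± 0.16. Dlx1 differed by 0.26 in set A and by -0.80 in set B. Dlx1 to Dlx4 were singled out after their values were seen, apart from Dlx3 and Dlx4, which the rule for named genes picks.

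Hmx2 and Hmx3 are neighbouring genes that specify vestibular epithelium, and neither passed the test. Hmx3 read 6.95, 7.04, 7.30, 6.93 and 6.83 in controls 1 to 5 and 6.89, 7.01, 6.75, 6.80 and 6.96 in mutants 1 to 5. The groups overlapped, with 2 mutants below the lowest control. Its difference was -0.13 with an interval of -0.33 to 0.07, an exact permutation p of 0.206 and a limma adjusted p of 0.734. Hmx2 ranged from 7.02 to 7.54 in the controls and from 6.91 to 7.30 in the mutants. Its difference was -0.08 (interval -0.32 to 0.16, exact permutation p 0.532), and it turned from -0.24 in set A to 0.17 in set B. For Hmx3 the values in these sets were -0.21 and -0.00131. The intervals allow the mutant signal of Hmx2 to lie between 80.0 and 112% of the control signal, and that of Hmx3 between 79.6 and 105%.

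Gbx2, a gastrulation brain homeobox gene needed for the endolymphatic duct, read 6.34, 6.44, 6.69, 6.83 and 6.64 in controls 1 to 5. Mutants 1 to 5 read 6.67, 6.49, 6.29, 6.77 and 7.01, so that mutant 3 lay below and mutant 5 above the range of the controls. The difference was 0.06 (interval -0.23 to 0.34), the exact permutation p 0.730 and the limma adjusted p 0.931. Its sign turned without mutant 5 (-0.03).

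Among the ventral genes, Pax2, a paired-box factor needed for cochlear outgrowth, read 6.48, 6.55, 6.71, 6.74 and 6.97 in controls 1 to 5. Mutants 1 to 5 read 6.65, 6.65, 6.62, 6.92 and 7.30, with mutant 5 alone above the controls. The difference was 0.14 (interval -0.15 to 0.43) with an exact permutation p of 0.421 and a limma adjusted p of 0.800. Without mutant 5 it was 0.02.

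Otx1, an orthodenticle homeobox gene required for the lateral semicircular canal, was the steadiest of the ventral genes. It ranged from 6.29 to 6.49 in the controls and from 6.09 to 6.43 in the mutants. The difference of -0.07 had an interval of -0.24 to 0.11, an exact permutation p of 0.389 and a limma adjusted p of 0.844. The mutant signal thus lay between 84.7 and 108% of the control signal by that interval.

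Otx2, the paralogue that acts in cochlea and saccule and also in the choroid plexus, varied most. It read 6.15, 6.87, 5.90, 7.35 and 6.65 in controls 1 to 5 and 5.84, 6.10, 6.11, 7.27 and 8.33 in mutants 1 to 5. Mutant 1 lay just below every control, mutants 2 and 3 sat at the low end of the controls, mutant 4 at their high end and mutant 5 above all of them. The means ± SD were 6.59 ± 0.58 over the 5 controls and 6.73 ± 1.05 over the 5 mutants. Only 28 of the 19938 genes (0.14%) had an SD among the mutants at or above that of Otx2. The difference was 0.14 with an interval of -0.78 to 1.06, an exact permutation p of 0.810 and a limma adjusted p of 0.946. It was -0.29 in set A and 0.80 in set B, and -0.26 without mutant 5. At this spread the design gives no direction for Otx2.

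Otx2 is shown with the sequence before 2 of its 4 annotated starts, because it had the widest spread and because these are the windows of the 9 genes that hold homeodomain letters. RefSeq promoter windows of GRCm38.p6 covered 6 of the 9 genes in 12 windows, Dlx5, Dlx6 and Otx1 not among them. In the 250 bases before each start, 3 sets of letters were searched on both strands: TAATTA, the core bound by many homeodomains, which reads the same on both strands; TAATCC, the core bound by Otx proteins, which shares its first letters with TAATTA; and AGGTGT, a T-box half-site. Capitals mark matches, and GGATTA is TAATCC on the opposite strand. Both windows lie on the minus strand of chromosome 14, are written 5′ to 3′ and end at the base before the start.
Otx2, chr14:48665110-48665359: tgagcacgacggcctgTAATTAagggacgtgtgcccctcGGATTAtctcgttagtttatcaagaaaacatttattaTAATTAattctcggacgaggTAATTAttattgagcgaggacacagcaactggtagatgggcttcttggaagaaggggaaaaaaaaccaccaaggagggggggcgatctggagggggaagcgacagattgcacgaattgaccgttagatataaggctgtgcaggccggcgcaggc
Otx2, chr14:48667645-48667894: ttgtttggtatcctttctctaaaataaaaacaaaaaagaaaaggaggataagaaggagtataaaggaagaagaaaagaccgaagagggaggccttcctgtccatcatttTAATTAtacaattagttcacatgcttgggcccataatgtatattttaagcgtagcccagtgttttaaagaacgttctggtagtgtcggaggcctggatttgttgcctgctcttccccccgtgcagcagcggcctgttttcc

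The window at 48665110 held 3 matches to TAATTA and 1 to TAATCC, and the window at 48667645 held 1 to TAATTA. Of 32851 RefSeq windows of this length, 4.84% held TAATTA, 6.25% TAATCC and 11.8% the T-box letters. The other 10 windows, those of Gbx2, Hmx2, Hmx3, Pax2 and Pax8 among them, held none of the 3, and AGGTGT was in 0 of the 12. A match of letters describes the sequence and shows no binding.

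Pax8, in neither the dorsal nor the ventral group, read 6.004, 5.86, 6.08, 6.29 and 6.19 in controls 1 to 5. In mutants 1 to 5 it read 5.96, 5.75, 6.35, 6.52 and 7.05, with mutants 3, 4 and 5 above every control and mutant 2 below. The difference was 0.24 (interval -0.18 to 0.67), the exact permutation p 0.365 and the limma adjusted p 0.757. It was 0.04 in set A, 0.55 in set B and 0.06 without mutant 5.

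**Figure D2:**
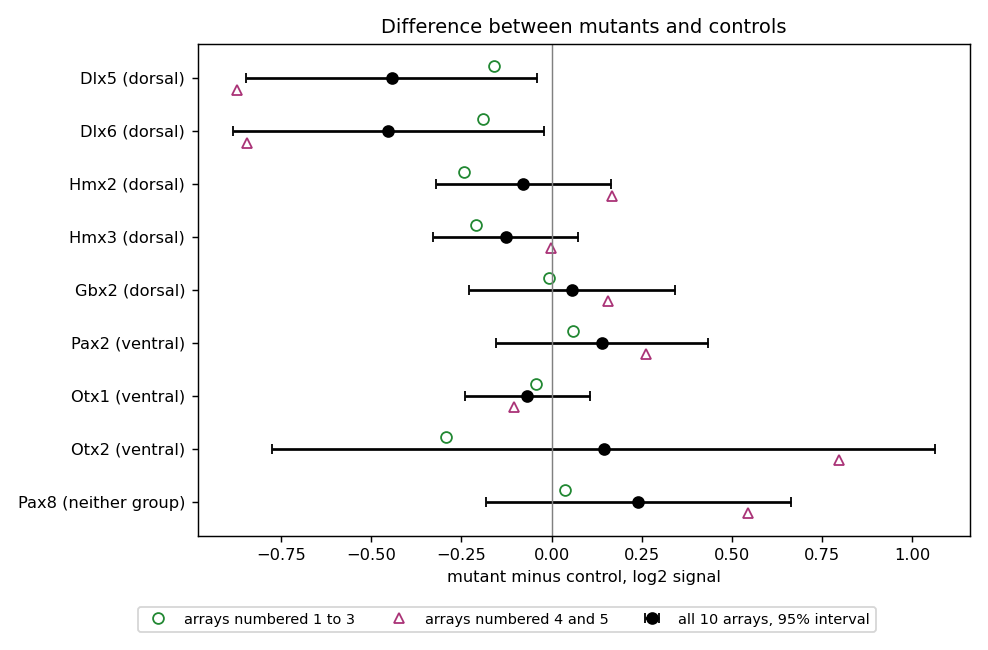
Mutant minus control difference in log2 signal (horizontal axis) for each gene, as the limma estimate over 10 arrays with its 95% interval and as the plain difference within set A (arrays numbered 1 to 3) and set B (numbered 4 and 5). Only the intervals of Dlx5 and Dlx6 lie below 0, and for these and Otx2 and Pax8 the sets of numbers lie far apart.

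The dorsal genes were set against the ventral genes as means per array, with each gene first centred on its mean over the 10 arrays. The mean of the 5 dorsal genes lay between 0.04 and 0.18 in the controls. In mutants 1 to 5 it was 0.17, 0.04, -0.29, -0.32 and -0.11, so that the 3 mutants with low Dlx signal were clearly below the controls and mutant 2 (0.0399) lay just under the lowest of them (0.0408). The mean of the 3 ventral genes ran from -0.27 to 0.23 in the controls and from -0.27 to 0.75 in the mutants, where mutant 5 was highest, and its difference of 0.07 turned to -0.11 without mutant 5. Dorsal minus ventral was -0.14 ± 0.54 in the mutants and 0.14 ± 0.23 in the controls (SD, n = 5 each), a difference of -0.28. That is smaller than the within-group SD of 0.42. Leaving out mutant 5 brought it to -0.10 and leaving out mutant 1 to -0.43.

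The dorsal group did not move as one. Its difference of -0.21 came mainly from the Dlx pair, whose mean differed by -0.45, while that of the Hmx pair differed by -0.10. In the dorsal group 4 of 5 genes had a difference below 0 (median -0.13), and in the ventral group 1 of 3 did (median 0.14), against a median of -0.00 over all genes. No p is given for these means, since the members were chosen with earlier results known.

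**Figure D3:**
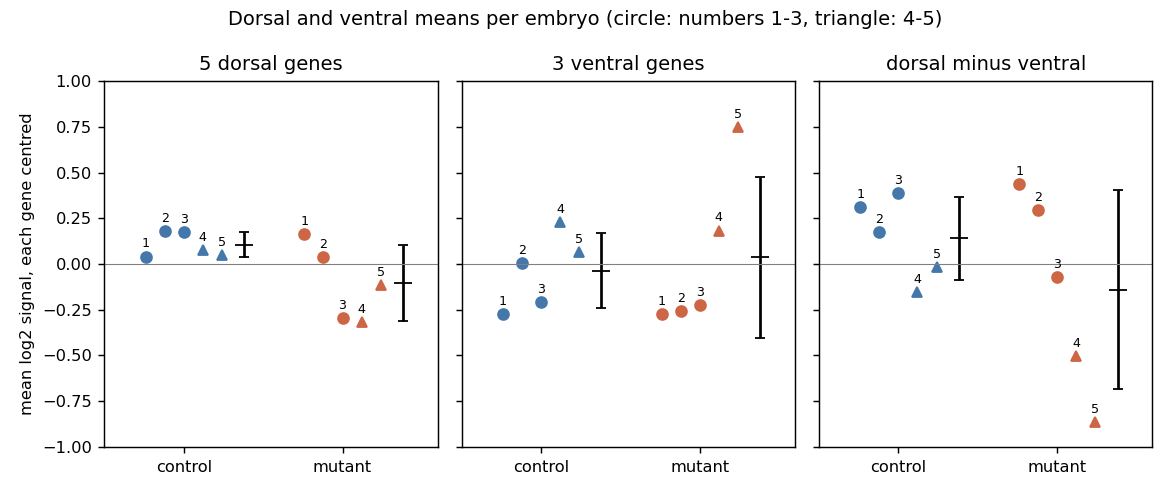
Mean log2 signal of the 5 dorsal genes, of the 3 ventral genes and their difference (vertical axis, each gene centred over the 10 arrays), for each embryo by replicate number, with the group mean ± SD. Mutants 4 and 5 have the lowest dorsal minus ventral values, and mutants 1 and 2 lie among or just above the controls.

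Once the group means were subtracted, some of the genes varied together over the 10 embryos. Where the mutants spread wider than the controls, as for Dlx5 and Dlx6 (ratio of SDs 4.03 and 5.03), they weigh most in r. No r was computed within the mutants or the controls alone, and the permutation took all 10 deviations as exchangeable. The 36 pairs were compared as deviations from the group means over the 10 arrays, and 6 pairs passed by Pearson's r and 2 by Spearman's rho after Benjamini-Hochberg adjustment over the 36. Dlx5 and Dlx6 were the closest pair, with r = 0.944 (permutation p 0.00017, adjusted 0.00612) and rho = 0.855 (adjusted 0.0490). Without the 2 arrays farthest from the median of Dlx5, r was 0.839, and within set A it was 0.977. Hmx2 and Hmx3, also neighbours in the genome, gave r = 0.444 and rho = 0.442 (permutation adjusted p 0.421 and 0.426).

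Gbx2 and Pax2, a dorsal and a ventral gene, were correlated at r = 0.817 (permutation p 0.00331, adjusted 0.0394) and rho = 0.891 (adjusted 0.0421). This held at 0.673 without the 2 farthest arrays and at 0.783 in set A. Pax8 went with Pax2 at r = 0.822 (permutation p 0.00253, adjusted 0.0394) and rho = 0.721 (adjusted 0.136). It went with Otx2 at r = 0.809 (permutation p 0.00451, adjusted 0.0394) and rho = 0.782 (adjusted 0.0759). Neither held in set A, where r was 0.073 and -0.276. Pax2 with Otx2 gave r = 0.779 (permutation p 0.00755, adjusted 0.0453) and rho = 0.624 (adjusted 0.242), and -0.446 in set A. Without the 2 farthest arrays the 3 values of r were 0.674, 0.509 and 0.653. These last 3 relations were therefore seen only with set B included. The deviations keep any shift between set A and set B. The 4 arrays of set B are too few for a value of their own, so such a shift and variation within set B were not told apart.

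Dlx5 went against Pax8, with r = -0.817 (permutation p 0.00547, adjusted 0.0394) and rho = -0.830 (adjusted 0.0540). The relation was -0.944 without the 2 farthest arrays and -0.787 in set A. Otx1 passed with no other member.

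**Figure D4:**
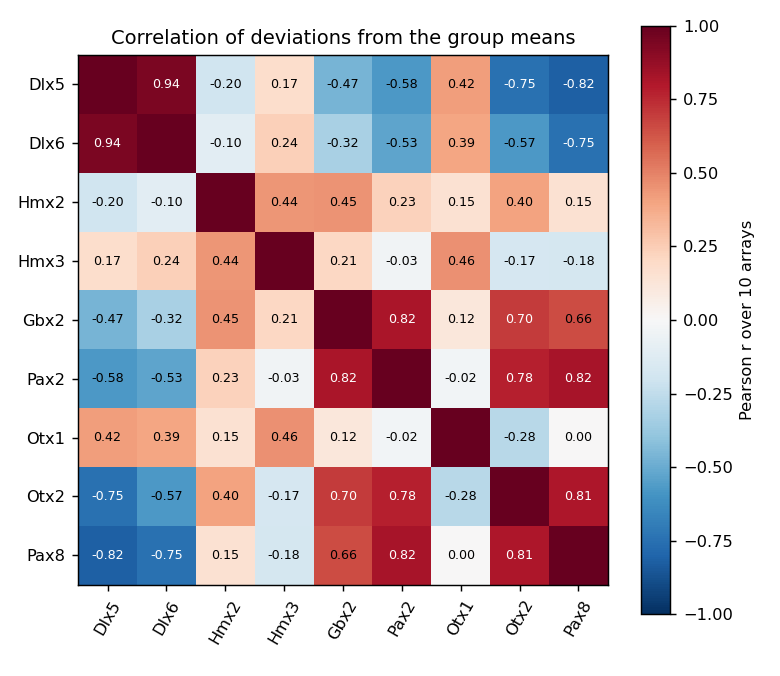
Pearson's r of the deviations from the group means over 10 arrays for each pair of the 9 genes (colour scale from -1 to 1). Dlx5 and Dlx6 form a block at 0.94, and Gbx2, Pax2, Otx2 and Pax8 a second block between 0.66 and 0.82 over all 10 arrays. In that block Gbx2 with Otx2 and with Pax8 missed the threshold (permutation adjusted p 0.0905 and 0.132). Their r in set A was -0.498 and -0.303.

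The means of some marker lists of neighbouring tissues moved with several of the genes. Each of the 9 genes was set against the mean of each of 7 marker lists, 63 relations in all, of which 4 passed by r and 0 by rho. For the marker lists the 2 farthest arrays are those farthest from the median of the list mean, taken as deviations. An array extreme in the gene alone can therefore stay in. The 15 measured hindbrain and midbrain-hindbrain boundary markers had means of 6.23 to 6.65 in the controls and 6.21 to 7.15 in the mutants. This mean was highest in mutant 5, as were En2, Pax5, Lhx1 and Lhx5. Other markers of the list were not: Hoxa2 was highest in control 1, Hoxb2 in mutant 4 and Egr2 in mutant 1. The genes were averaged unscaled, so those with the widest range weigh most. Gbx2 followed this mean at r = 0.828 (permutation p 0.00043, adjusted 0.0135) and rho = 0.867 (adjusted 0.0674), with 0.701 without the 2 farthest arrays and 0.759 in set A. Otx2 gave r = 0.863 (permutation p 0.00181, adjusted 0.0370) and rho = 0.624 (adjusted 0.315). Pax8 gave r = 0.836 (permutation p 0.00235, adjusted 0.0370) and rho = 0.673 (adjusted 0.276). Without the 2 farthest arrays these values of r were 0.496 and 0.525, and in set A they were -0.127 and 0.104, so they do not hold there. Pax2 missed the threshold, with r = 0.803 (permutation p 0.00923, adjusted 0.0831) and rho = 0.758 (adjusted 0.212). Its r was 0.587 without the 2 farthest arrays and 0.779 in set A.

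Otx2 lay close to the mean of the choroid plexus markers, of which 5 of 6 were measured and 0 had a mean below background. That mean ran from 5.80 to 7.37 in the controls and from 6.08 to 7.72 in the mutants. The genes were averaged unscaled, so Ttr weighs most in it. Kl of the same list ran only from 4.16 to 4.74 and was lowest in mutant 4, where Ttr was highest. Ttr, transthyretin, the abundant secreted protein of the choroid plexus, read 7.54, 11.57, 6.41, 11.86 and 10.26 in controls 1 to 5 and 9.85, 8.16, 8.57, 12.42 and 11.60 in mutants 1 to 5. The 5 arrays with Ttr above 10 were also the 5 with the highest Otx2, in both groups. The cut at 10 was not set in advance, and mutant 1, with Ttr at 9.85, had the lowest Otx2 (5.84). For Otx2 with this list r was 0.810 and rho 0.733, which missed the threshold over 63 relations (permutation p 0.00558 for r, adjusted 0.0586, and 0.212 adjusted for rho). The value of r was 0.852 without the 2 farthest arrays and 0.823 in set A. Kcne2, a potassium channel subunit of the choroid plexus, had a difference of 0.22 ± 0.35 (SE) and Ttr one of 0.59 ± 1.08.

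For Dlx5 the closest list was that of the pharyngeal arch mesenchyme, with 12 of 13 markers measured, 0 with a mean below background, and means of 7.68 to 8.06 in the controls and 7.39 to 8.10 in the mutants. The relation had r = 0.888 (permutation p 0.00028, adjusted 0.0135) and rho = 0.879 (adjusted 0.0674). It was 0.780 without the 2 farthest arrays and 0.629 in set A. This list holds Dlx1 to Dlx4. Dlx6 with the full list missed the threshold, with r = 0.802 (permutation p 0.00426, adjusted 0.0537) and rho = 0.721 (adjusted 0.212). On its 8 other genes Dlx5 gave r = 0.780 and rho = 0.733 (permutation adjusted p 0.0130 and 0.0411 over 2 relations, a list chosen after the data were seen), 0.592 without the 2 farthest arrays and 0.478 in set A. Dlx6 gave r = 0.707 and rho = 0.527 (permutation adjusted p 0.0205 and 0.122), with 0.410 without the 2 farthest arrays. The list mean was lowest in mutant 4, as were Dlx5 and Dlx6, and its difference was 0.20 in set A and -0.41 in set B. The part of such tissue in the levels of the 9 genes was not tested.

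**Figure D5:**
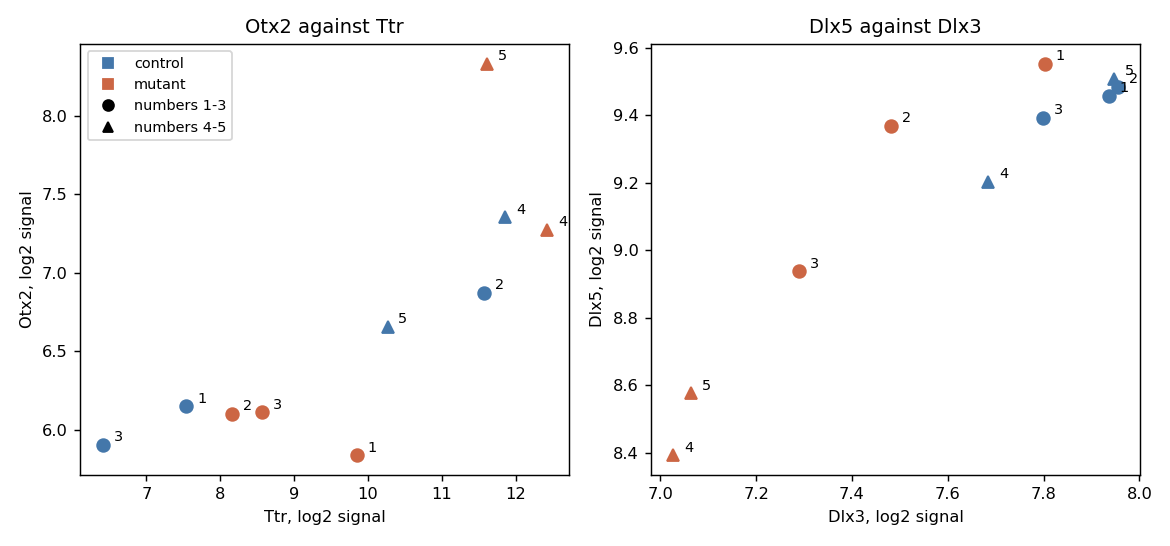
Log2 signal of Otx2 against Ttr and of Dlx5 against Dlx3 in the 10 arrays, labelled by replicate number and coloured by group. Otx2 is highest in the 5 arrays with Ttr above 10, and mutants 3, 4 and 5 are low in both Dlx genes.

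The other marker lists, read for the same arrays, held no gene past the threshold. Skeletal condensation markers had differences below 0 in 8 of 8 measured genes, with a median of -0.29, though Sp7, Alpl and Col10a1 had only -0.02, -0.01 and -0.05. Ibsp, the bone sialoprotein, had -1.29 ± 0.51 (SE, limma adjusted p 0.583, exact permutation p 0.0873). That difference rests on controls 1 and 4, at 7.94 and 7.46. The other controls, at 4.96 to 5.64, overlapped the mutants, at 4.21 to 5.74. Col2a1 had -0.53 ± 0.12, with all 5 mutants below every control (limma adjusted p 0.569). Cranial ganglion neuron markers had differences above 0 in 11 of 11, with a median of 0.32, and the neurogenic factor Neurod4 had 0.74 ± 0.25 (limma adjusted p 0.569). Matn1, a cartilage matrix protein, had -0.61 ± 0.33 and the neurogenic factor Neurod1 0.57 ± 0.26. Otic epithelium markers had a median of -0.13 with 8 of 12 below 0. In that list Oc90 had -0.49 ± 0.32. Its values were 8.35 in mutant 1, 9.53 to 10.57 in the other mutants and 9.86 to 10.54 in the controls. Sparcl1, a secreted matricellular protein in that list, went the other way, at 10.36 to 10.52 in the controls and 10.55 to 11.02 in the mutants. Its groups did not overlap, and the difference of 0.34 ± 0.07 had an exact permutation p of 0.00794 and a limma adjusted p of 0.569. Periotic mesenchyme markers had a median of -0.13 with 8 of 10 below 0, and the collagen genes Col1a1 and Col3a1 each had -0.16. Among the lists described above, the LIM homeobox genes Lhx1 and Lhx5 of the hindbrain list had 0.48 ± 0.43 and 0.35 ± 0.45, and Alx1 of the arch list had 0.49 ± 0.24. The immediate early genes Junb and Ier2 had -0.20 ± 0.18 and -0.19 ± 0.29. Over all genes the median was -0.00.

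The genes that act around the 9 factors in otic patterning were described from 5 lists, with 88 measured genes, and 0 of the 88 passed by limma. At an unadjusted p under 0.05 were 2 of 31 other otic transcription factors, 3 of 12 WNT genes, 1 of 10 hedgehog genes, 2 of 19 BMP and FGF genes and 2 of 16 genes of otic structures, all of them lower in the mutants. Over all genes 3.11% were under 0.05 and lower. The medians were -0.03, -0.04, -0.07, -0.08 and 0.02 in the same order. The 5 lists were chosen with earlier results of these data known, so these counts are a description only.

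On the dorsal WNT side, Fzd4, a WNT receptor, had -0.36 ± 0.08 (SE) and Notum, a secreted WNT inhibitor, -0.33 ± 0.09, each with all 5 mutants below all 5 controls and a limma adjusted p of 0.569. On the ventral hedgehog side, the receptor partner Boc had -0.18 ± 0.07 and the feedback inhibitor Hhip -0.21 ± 0.11. Bmper, a secreted BMP-binding protein, had means ± SD of 8.56 ± 0.07 over the 5 controls and 8.11 ± 0.19 over the 5 mutants, with no overlap and a limma adjusted p of 0.449. Col9a1, a collagen of the otic structures list, had -0.42 ± 0.16. The FGF feedback inhibitors Spry2 and Spry4 had -0.25 ± 0.08 and -0.28 ± 0.11. None of these genes is a member of the 9, and none passed over all probe sets.

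Genes next to the 9 factors in the genome did not pass the test either. In the RefSeq gene order of GRCm38.p6, Sem1 flanks Dlx6 and had -0.19 ± 0.09 (SE), and Sdhaf3 flanks Dlx5 and had 0.03 ± 0.07. The Hmx pair lies between Acadsb (0.08) and Bub3 (0.01). Agap1 and Asb18 flank Gbx2, Hif1an and Slf2 flank Pax2, Wdpcp and Ehbp1 flank Otx1, Tmem260 and Exoc5 flank Otx2, and Psd4 and Cacna1b flank Pax8. The differences of the 14 flanking genes lay between -0.19 and 0.26, and 0 passed by limma, with 0 also under an unadjusted p of 0.05. Over all genes these shares were 0.01% and 7.82%. Wdpcp, Sem1, Ehbp1 and Exoc5 lay just above that cut, with a limma unadjusted p of 0.0523 to 0.0569.

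Among 16218 genes above background, those most like each factor in their deviations from the group means had r of 0.905 to 0.983 over the 10 arrays. With so many genes and 10 arrays such values are a description only. Dlx5 was closest to Gigyf1, Mrpl43 and Dlx3, and Dlx6 to Smg9, Snrpa and Alkbh3os1. Hmx2 was closest to Zfp296, Dlec1 and Baiap2l2, and Hmx3 to Zfyve27, Hoxa13 and Fam43b. The closest to Gbx2 were Slc1a6, Cep170 and Zbtb38, to Pax2 Rc3h2, Camsap2 and Sv2c, and to Otx1 Ihh, Htra4 and Ghsr. For Otx2 they were Lrrn1, Fat3 and Shank1, and for Pax8 Fbxl21, Rtn4 and Npas3. Of these 27 genes 0 passed between mutants and controls by limma.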

How the data were processed

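RNA of 10 embryos was measured on 10 arrays. The submitters' processing notes name RMA and Affymetrix Expression Console 1.1 for the values the authors deposited, which are log2 signals. Background correction, equal array distributions and 1 summary value per probe set are the steps of RMA. The log2 scale was read from the values, with array medians of 6.19 to 6.27. Which probe file version was used is not given in the sources. Arrays have no read depth, and their number limits the precision.

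Of 35557 probe sets, 21789 had 1 gene symbol in the platform annotation (1621 had several) and all 21789 were tested; 21698 were matched by gene ID to RefSeq names. Where a gene had several, the probe set of highest mean stood for it. The genotypes were compared in R 4.3.3 with limma 3.58.1 (mean-variance trend, Benjamini-Hochberg over all probe sets, threshold 0.05, 95% intervals) and by exact two-sided permutation, whose smallest p is 0.00794. Correlations used 100000 permutations of deviations from the group means. The fit was checked on simulated data.

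Named genes are the 9 members, Tbx1, the 2 of smallest p in each otic list, the 2 largest differences in each marker list, the 3 genes most like each member and the flanking genes. A few others are named where a value turns on them, after their values were seen. The members and lists were chosen with earlier results of these data known. List genes without a probe set of 1 symbol were not analysed here.

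Same-number mutants and controls correlated at 0.110 to 0.236 in their deviations, and other numbers at -0.382 to 0.385. All 5 same-number values exceeded 0.1, which was the bound for treating numbers as pairs, but the labels name nothing that same-numbered embryos share. The main fit and the exact permutations are therefore unpaired, and the replicate block is given as an alternative. The alternatives were other eBayes settings, normalization, array weights, blocks, array sets, filters and arrays left out.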

Additional observations from a re-analysis of the deposited data

Results flagged for a closer look

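Dixon's test was run on the 9 genes, Tbx1, the other 4 Dlx genes, Hmx1 and 6 means of members, each in both groups of 5. Of these 42 groups 2 were marked, where chance gives about 2.1. Otx1 in control 3 read 6.492, above the other 4 controls, which lay between 6.29 and 6.35. Without control 3 the log2 difference of Otx1 was -0.03. Hmx1, a relative of Hmx2 and Hmx3 and not one of the 9, read 8.14 in control 3, above the other 4 controls at 7.80 to 7.89.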

How the results depend on the processing

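The number of genes past the threshold stayed at 2 in most settings, and was 1 in set A (arrays numbered 1 to 3), 0 by limma in set B (808 genes under an unadjusted p of 0.05) and 1 with dim probe sets left out. Leaving out single arrays gave 2 each time. None of the 9 genes passed in any of the 21 alternatives. Dlx5, Dlx6, Hmx3, Pax2, Otx1 and Pax8 kept their sign throughout, Dlx5 between -0.87 and -0.16 and Dlx6 between -0.85 and -0.19. The other 3 turned. Hmx2 was 0.17 in set B. Gbx2 was -0.0268 with array weights and -0.00762 in set A. Otx2 was -0.18 with array weights, -0.29 in set A and -0.0642 without mutant 5 and control 4 together, a setting chosen after seeing the data. With single arrays left out, Hmx2 ran from -0.13 to 0.00308 (highest without control 2), Gbx2 from -0.0339 (without mutant 5) to 0.15 and Otx2 from -0.26 (without mutant 5) to 0.37. Gbx2 was also below 0 without control 1 (-0.0039) and Otx2 without control 3 (-0.03). The cause of these turns was not tested. With the replicate block the limma adjusted p was 0.402 for Dlx5 and 0.404 for Dlx6, 2 genes were called, and no call changed. The limma unadjusted p with the block was 0.00958 for Dlx5 and 0.0107 for Dlx6, and 1941 genes were under 0.05 against 1559 in the main fit. With array set as covariate it was 0.00913 and 0.0181, and 1823 genes were under 0.05. Dorsal minus ventral stayed below 0, between -0.60 (set B) and -0.07 (set A), and at -0.72 with each gene in units of its SD. With 5 arrays a group, the intervals of Otx2, Dlx5, Dlx6 and Pax8 are the widest.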
